A study of Homo sapiens with 8 samples.

Results

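The genes that copy DNA and open S phase were examined in LP-1, a human multiple myeloma cell line, after 6 hr of bromodomain inhibition. They are 41 genes: the licensing and helicase genes, the replicative polymerases, the sliding clamp and its loader, the fork and chromatin assembly factors, and several E2F factors and G1/S regulators. They were listed by symbol, with no threshold on their values, and all 41 had a mean of at least 1 RPKM (reads scaled by transcript length and by library size) over the libraries, so all 41 were among the 14732 genes tested of 63102 with a value in every library. RFC2 has another row in the table, an alternate copy on a patch sequence, which was listed at 0 in every library and was not tested.

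RNA-seq was available for 8 libraries in 4 groups of 2, all from LP-1 cells treated for 6 hr. SGC-CBP30, an inhibitor of the bromodomains of the coactivators CBP and EP300, was used at 2.5 μM, and CPI203, an inhibitor of the bromodomains of the BET family, at 250 nM. The library names put each compound in a series with its own pair of DMSO libraries, and that pair served as its control. LP-1 is one cell line grown in culture, and the libraries of a group were described as biological replicates, so the p-values measure the spread between these libraries.

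All 7 plasma cell markers examined, MZB1 and XBP1 among them, were tested, with mean levels from 27.9 to 420.9 RPKM. No B cell, T cell, myeloid or fibroblast marker examined reached a mean of 1 RPKM. Depth estimated from the RPKM values was 46800000 to 50100000 reads in the SGC-CBP30 libraries, 34100000 to 34500000 in their DMSO libraries, and 26000000 to 29700000 in the CPI203 series. The SGC-CBP30 libraries were thus deeper than their controls, and whether this had a part in the changes below was not tested. The lowest level of any of the 41 genes in any library was 4.31 RPKM, that of POLE2 with CPI203.

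Replication begins with licensing in G1, when the origin recognition complex, CDC6 and CDT1 load the MCM2 to MCM7 ring onto DNA. The kinase CDC7, with CDC45 and the GINS complex, turns the ring into an active helicase, and the polymerases, PCNA and its loader RFC follow at the fork. Many of these genes are transcribed by E2F factors, which the retinoblastoma protein restrains until cyclin-dependent kinases phosphorylate it. Myeloma cell lines divide in culture, and these genes are then broadly expressed. In a bulk library, fewer cells in S phase and less RNA per cell cannot be told apart.

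Promoter sequence was examined for the letters of an E2F site. The genes were listed as replication and E2F target genes, so the share that holds a site describes the list. RefSeq promoters (GRCh38.p14, from 250 bases before to 50 bases after a transcript start) matched 35 of the 41 genes by symbol. CCNE2, E2F8, GINS4, MCM4, MCM5 and RPA2 were not matched. The words searched on both strands were TTTCCCGC, TTTCGCGC, TTTGCCGC and TTTGGCGC. At least 1 of them was present for 23 of 35 genes (65.7%) and for 1090 of all 27305 genes with a promoter in the table (3.99%). The E-box word CACGTG was present for 4 of 35 (11.4%, against 8.77% of all genes), and the word TTTGAA of the CHR, an element of late cell cycle genes, for 0 of 35 (against 18.2%). These are matches of letters in a window and not measured binding.

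The last 120 bases before the start are shown for 5 genes that cover the responses described below. CDC7 rose most with SGC-CBP30, E2F2 fell with both compounds, UHRF1 rose with both, LIG1 passed 1.5-fold with CPI203 and not with SGC-CBP30, and TIPIN rose with SGC-CBP30 and fell with CPI203. Each is written 5′ to 3′ on the strand of the gene, and capitals mark the E2F words or their reverse complements.
CDC7, chr1:91500992-91501111, plus strand: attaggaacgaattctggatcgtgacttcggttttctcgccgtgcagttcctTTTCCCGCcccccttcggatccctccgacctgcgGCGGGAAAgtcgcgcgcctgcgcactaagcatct
UHRF1, chr19:4909381-4909500, plus strand: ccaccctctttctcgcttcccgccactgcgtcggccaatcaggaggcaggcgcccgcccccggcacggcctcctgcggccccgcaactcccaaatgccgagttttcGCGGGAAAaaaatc
LIG1, chr19:48170345-48170464, minus strand: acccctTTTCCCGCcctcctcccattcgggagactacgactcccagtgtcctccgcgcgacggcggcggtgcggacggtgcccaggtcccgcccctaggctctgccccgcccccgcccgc
TIPIN, chr15:66356686-66356805, minus strand: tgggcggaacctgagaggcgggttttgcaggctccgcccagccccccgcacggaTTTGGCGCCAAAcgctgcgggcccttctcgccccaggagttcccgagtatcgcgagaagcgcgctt
E2F2, chr1:23531234-23531353, minus strand: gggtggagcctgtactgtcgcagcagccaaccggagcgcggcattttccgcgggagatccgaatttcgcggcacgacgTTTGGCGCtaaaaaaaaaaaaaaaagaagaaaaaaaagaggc
CDC7 held the same word in both orientations, at positions -68 to -61 and -34 to -27 from its start. TIPIN held a palindrome in which the word at positions -66 to -59 overlaps its reverse complement at -62 to -55. An E2F word was thus present in a gene that rose with CPI203, in one that fell with it, and in one that fell with both compounds. By direction with CPI203, 9 of 16 genes that rose (56.2%), 10 of 13 that fell (76.9%) and 4 of 6 that did not pass the test (66.7%) held a word.

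The genes differed widely in level. RPKM is a value per length, so levels can be compared between genes. The 3 highest were PCNA, the sliding clamp, at a mean of 205.9 RPKM over all libraries, MCM4, a subunit of the helicase ring, at 204.9 RPKM, and MCM7, another subunit, at 150.5 RPKM. The 3 lowest were POLE2, the second subunit of the leading-strand polymerase epsilon, at 8.86 RPKM, E2F8, a repressive E2F, at 11 RPKM, and CDC7 at 14.3 RPKM. The summed level of the 41 genes was 2301.6 and 2339.5 RPKM with DMSO in the SGC-CBP30 series and 2489.0 and 2494.8 RPKM with SGC-CBP30. In the series of CPI203 it was 1918.7 and 1948.2 RPKM with DMSO and 2039.6 and 2024.8 RPKM with CPI203. Both treated libraries were above both of their DMSO libraries in either series, and all 4 libraries of the CPI203 series were below those of the SGC-CBP30 series. As a share of all RPKM, the genes took 0.468% and 0.469% with DMSO against 0.511% and 0.518% with SGC-CBP30, and 0.392% and 0.395% against 0.419% and 0.420% with CPI203.

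SGC-CBP30 raised many of the genes by a small amount. Of the 41, 21 were higher at an adjusted p under 0.05 (limma with Benjamini-Hochberg adjustment over all genes tested), against a background of 25.6% of all genes, and 1 was lower, against 14.8%. The remaining 19 did not pass the test. The median log2 fold change of the 41 genes was 0.13, beside 0.07 for all genes tested, on the log2(RPKM + 0.1) scale used throughout. Both SGC-CBP30 libraries were above both DMSO libraries for 31 genes (background 45.9%), below both for 1 (background 27.2%), and overlapped them for 9. Only 2 genes also passed a 1.5-fold change, CDC7 upward and E2F2 downward (background 7.26% in either direction). With libraries brought to equal medians, 13 of the 41 genes rose, beside 2440 of all 14732 genes tested. The median of the list was then 0.05, beside -0.006 for all genes. Of all calls, 63.4% were upward as deposited, 43.9% after this scaling and 56.0% after quantile normalization. Without replicate 2 of SGC-CBP30 fewer of the 41 genes rose, at a median of 0.13, and no share of all genes is given for that fit.

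**Figure D1:**
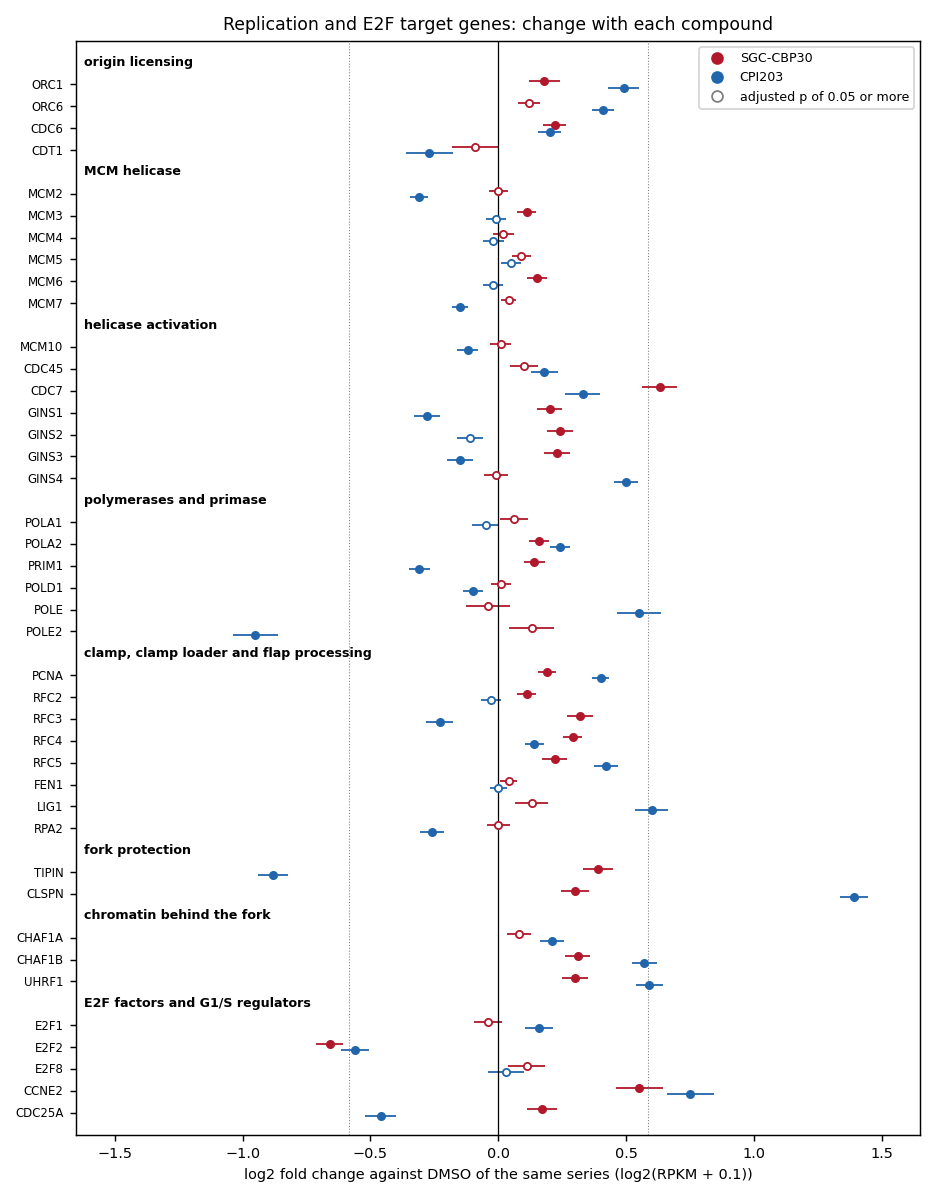
Log2 fold change of each gene against the DMSO libraries of its own series, for SGC-CBP30 (red) and CPI203 (blue), grouped by role. Bars are the standard errors of the fit, open points did not pass the test, and dotted lines mark 1.5-fold (0.58 on the log2 scale); most red points lie just right of 0, while blue points reach from -0.95 (POLE2) to 1.39 (CLSPN).

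CDC7, the kinase that fires licensed origins (ENSG00000097046, hg19 chr1:91966407-91991321), had the largest rise with SGC-CBP30. It was at 12.1 and 12.6 RPKM with DMSO and at 18.8 and 19.6 RPKM with SGC-CBP30. The groups were far apart, with a log2 fold change of 0.63 ± 0.068 (SE) and an adjusted p of 0.000125 by limma. The change of CDC7 was 0.56 under median scaling and 0.55 under quantile normalization, less than 1.5-fold in either. CCNE2, cyclin E2, which activates CDK2 at the start of S phase (ENSG00000175305), was at 14.0 and 12.3 RPKM with DMSO and at 18.3 and 20.4 RPKM with SGC-CBP30. Its change was 0.55 ± 0.092 (SE, adjusted p = 0.00147), and the DMSO libraries were about as far apart as the treated ones.

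Both fork genes of the list rose with SGC-CBP30 (background 25.6%). TIPIN, the partner of TIMELESS at the fork (ENSG00000075131, hg19 chr15:66628543-66679084), rose from 26.1 and 25.5 RPKM to 33.3 and 34.2 RPKM, a log2 fold change of 0.39 ± 0.059 (adjusted p = 0.000908). CLSPN, which encodes claspin, the fork protein that activates the checkpoint kinase CHK1 (ENSG00000092853, hg19 chr1:36185818-36235568), rose from 13.5 and 13.6 RPKM to 16.6 and 16.7 RPKM, a change of 0.30 ± 0.055. In neither gene did treated and DMSO libraries overlap. TIMELESS, which is not among the 41, had a change of 0.08 and did not pass the test (adjusted p = 0.141 by limma). Among the chromatin genes, CHAF1B, a subunit of the histone chaperone CAF-1, rose from 20.4 and 20.7 RPKM to 25.3 and 25.8 RPKM, a change of 0.31. UHRF1, which recruits the maintenance methyltransferase DNMT1 (ENSG00000034063, hg19 chr19:4903091-4962165), rose from 17.3 and 17.2 RPKM to 21.1 and 21.5 RPKM, a change of 0.30. CHAF1A, the large CAF-1 subunit, had a change of 0.08 and did not pass the test.

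The clamp and its loader also rose with SGC-CBP30. PCNA was at 194.4 and 199.6 RPKM with DMSO and at 219.3 and 228.7 RPKM with SGC-CBP30, a log2 fold change of 0.19. RFC3 was at 23.4 and 22.5 RPKM with DMSO and at 28.6 and 28.8 RPKM with SGC-CBP30, a log2 fold change of 0.32. The other loader genes RFC4 (0.29), RFC5 (0.22) and RFC2 (0.11) rose as well. RFC2, the smallest of these, was at 64.5 and 64.7 RPKM against 68.5 and 71.4 RPKM. The lagging-strand genes FEN1, the flap endonuclease (0.04), and LIG1, the ligase that seals Okazaki fragments (0.13), did not pass the test, nor did RPA2, a subunit of the single-strand binding protein, at 0.00.

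Of the 7 helicase activators 4 rose with SGC-CBP30, CDC7 and 3 of the GINS genes (background 25.6%). Of the 6 MCM ring genes 2 rose (same background). GINS1 (0.20), GINS2 (0.24) and GINS3 (0.23) passed the test, and GINS4 (-0.01), CDC45 (0.10) and MCM10 (0.01) did not. In the ring, MCM6 was at 53.3 and 56.0 RPKM with DMSO and at 61.2 and 60.3 RPKM with SGC-CBP30, a rise of 0.15. MCM3 was at 132.2 and 138.7 RPKM and then at 144.5 and 148.1 RPKM, a rise of 0.11. MCM2, MCM4, MCM5 and MCM7 had log2 fold changes between 0.00 and 0.09 and did not pass the test. MCM4 was at 217.4 and 219.7 RPKM against 220.1 and 224.2 RPKM, and MCM7 at 167.6 and 171.3 RPKM against 176.5 and 172.3 RPKM. Of the licensing genes, CDC6 (0.22) and ORC1 (0.18) rose, while ORC6 (0.12) and CDT1 (-0.09) did not pass the test.

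Of the polymerase genes, POLA2, a subunit of the primase-polymerase complex, rose by 0.16, and PRIM1, its catalytic primase subunit, rose from 41.9 and 41.4 RPKM to 45.7 and 45.9 RPKM, a change of 0.14. POLA1 (0.06), POLD1 (0.01), POLE (-0.04) and POLE2 (0.13) did not pass the test, POLE2 with overlapping libraries at 11.5 and 9.85 RPKM against 11.3 and 11.9 RPKM.

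The smallest of these rises depended on single libraries. PRIM1, RFC2 and CDC25A lost the call without any 1 of the 4 libraries of the series, with an adjusted p by limma of up to 0.117, 0.241 and 0.183. MCM3, MCM6 and ORC1 lost it without DMSO replicate 1 or either SGC-CBP30 library (up to 0.224, 0.091 and 0.213), and MCM3 also without either DMSO library of the other series. GINS1 lost it without DMSO replicate 1 (0.0528) or SGC-CBP30 replicate 2 (0.0746), POLA2 without SGC-CBP30 replicate 1 (0.0565), and RFC5 (0.055) and GINS3 (0.0512) without SGC-CBP30 replicate 2. The call held in every alternative that kept the same controls, and with all 4 DMSO libraries as controls, for 11 of the 21 genes: CDC7, CCNE2, TIPIN, RFC3, CHAF1B, CLSPN, UHRF1, RFC4, GINS2, CDC6 and PCNA. The last setting adds the DMSO libraries of the CPI203 series, in which most of the 41 genes were lower. It thus makes rises larger by construction, with a median of 0.27 for the list, and is no independent support.

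E2F2, an activating E2F (ENSG00000007968, hg19 chr1:23832921-23857712), was the 1 gene of the list that fell with SGC-CBP30. It was at 33.8 and 34.4 RPKM with DMSO and at 21.7 and 21.2 RPKM with SGC-CBP30. The replicates lay close together and the groups far apart, with a log2 fold change of -0.66 ± 0.054 (SE, adjusted p = 2.65e-05 by limma). E2F1, the other activating factor of the list, had a change of -0.04 and did not pass the test, nor did E2F8 (0.11), which was at 12.9 and 12.3 RPKM against 13.3 and 13.9 RPKM. CDC25A, the phosphatase that activates CDK2, rose from 26.3 and 25.6 RPKM to 29.6 and 28.8 RPKM (0.17) with an adjusted p of 0.046, a call that was lost under median scaling. With all 4 DMSO libraries as controls, the change of E2F2 was -0.44 and its adjusted p was 0.0915.

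With CPI203 the list moved in both directions, as did all genes tested. Of the 41 genes, 18 were higher (background 31.1%), 14 were lower (background 33.1%) and 9 did not pass the test by limma at an adjusted p under 0.05. The median log2 fold change was 0.00, beside -0.01 for all genes tested, and the median size of a change regardless of sign was 0.26, beside 0.33 for all genes. Both CPI203 libraries were above both DMSO libraries for 18 genes (background 39.2%), below both for 17 (background 41.7%) and overlapped them for 6. Past 1.5-fold were 4 genes upward, CLSPN, CCNE2, LIG1 and UHRF1, and 2 downward, POLE2 and TIPIN (background 27.8% in either direction).

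CLSPN had the largest change of the list with either compound. It was at 9.91 and 10.5 RPKM with DMSO and at 26.8 and 27.1 RPKM with CPI203. This was a 2.62-fold rise, with a log2 fold change of 1.39 ± 0.055 (SE, adjusted p = 4.54e-08), far beyond the spread of replicates. CCNE2 was at 12.1 and 14.0 RPKM with DMSO and at 22.8 and 21.3 RPKM with CPI203, a change of 0.75 ± 0.092. Its DMSO level differed by -0.01 between the series, and it rose with both compounds.

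LIG1 (ENSG00000105486, hg19 chr19:48618701-48673860) was at 19.7 and 21.1 RPKM with DMSO and at 32.9 and 29.3 RPKM with CPI203. Its change was 0.60 ± 0.065. It was less than 1.5-fold with a pseudocount of 1 (0.58), without CPI203 replicate 1 (0.52) and without DMSO replicate 1 (0.55), and the level with CPI203 lay near the 29.1 and 30.7 RPKM of DMSO in the SGC-CBP30 series. UHRF1 was at 12.9 and 12.8 RPKM and rose to 19.0 and 19.8 RPKM, a change of 0.59 ± 0.052, or 0.56 with a pseudocount of 1, less than 1.5-fold. CHAF1B rose from 15.5 and 15.1 RPKM to 22.4 and 23.0 RPKM, a change of 0.57 ± 0.049. No treated library of these genes overlapped a DMSO library of its series. CHAF1A rose by 0.21, so all 3 chromatin genes rose with CPI203 (background 31.1%).

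**Figure D2:**
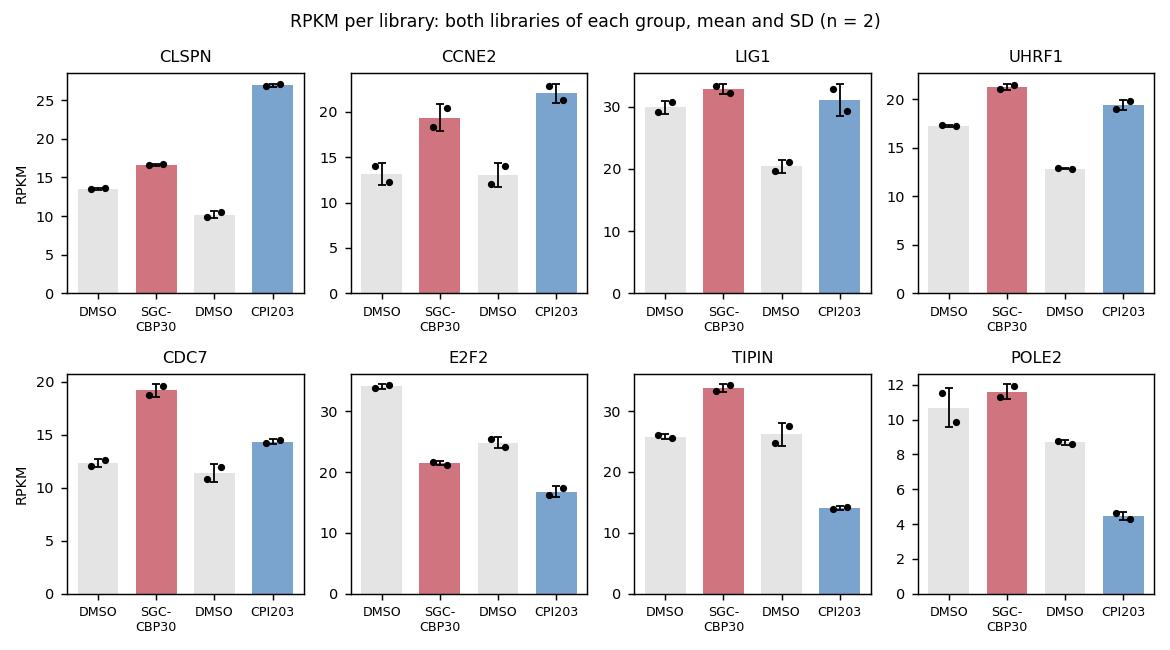
RPKM in both libraries of each group (points), with the mean (bar) and SD (n = 2), for the 8 genes past 1.5-fold with either compound; DMSO bars stand left of the compound of the same series. TIPIN rises with SGC-CBP30 and falls with CPI203, E2F2 falls with both, and LIG1 and UHRF1 start lower in the DMSO libraries of the CPI203 series.

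Subunits of the same complex moved apart with CPI203. Of all genes tested, 31.1% rose and 33.1% fell with it, so such splits do not set these complexes apart. POLE2 (ENSG00000100479, hg19 chr14:50110272-50155140) fell from 8.78 and 8.60 RPKM to 4.61 and 4.31 RPKM, a log2 fold change of -0.95 ± 0.087 (adjusted p = 7.97e-06). POLE, the catalytic subunit of the same polymerase, rose from 20.9 and 22.6 RPKM to 29 and 35.0 RPKM, a change of 0.55 ± 0.087. Neither overlapped its controls, although the CPI203 libraries of POLE were far apart. DMSO in the SGC-CBP30 series gave 35.8 and 32.0 RPKM for POLE. Its rise did not pass the test against all 4 DMSO libraries (adjusted p = 0.382 by limma). In the primase complex POLA2 rose by 0.24, POLA1 (-0.05) did not pass the test, and PRIM1 fell from 35.7 and 34.6 RPKM to 28.5 and 28.1 RPKM, a change of -0.31 ± 0.041. POLD1, the catalytic subunit of polymerase delta, fell by 0.10 with an adjusted p of 0.0497, a call that was lost whichever library was left out (up to 0.159).

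Genes of GINS, of the clamp loader and of the fork also moved in both directions with CPI203 (backgrounds 31.1% higher and 33.1% lower). GINS4 rose by 0.50, GINS1 and GINS3 fell by 0.28 and 0.15, and GINS2 (-0.11) did not pass the test. RFC5 rose by 0.42 and RFC4 by 0.14, RFC3 fell by 0.23, and RFC2 (-0.03) did not pass the test. TIPIN fell from 24.8 and 27.5 RPKM to 13.9 and 14.3 RPKM, a change of -0.88 ± 0.059 (adjusted p = 9.59e-07), while CLSPN rose. PCNA, which the loader places on DNA, rose from 170.7 and 176.1 RPKM to 231.0 and 227.0 RPKM, a change of 0.40. RPA2 fell by 0.26 and FEN1 (0.00) did not pass the test.

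Of the 6 MCM ring genes 2 fell with CPI203 (background 33.1%, so about the share of all genes) and 4 did not pass the test. MCM2 fell from 120.8 and 113.9 RPKM to 93.8 and 95.2 RPKM, a change of -0.31 ± 0.036 (adjusted p = 3.98e-05). MCM7 fell from 135.2 and 136.0 RPKM to 122.6 RPKM in both libraries, a change of -0.15. MCM3, MCM4, MCM5 and MCM6 had changes between -0.02 and 0.05, with MCM4 at 183.3 and 198.5 RPKM against 192.5 and 183.4 RPKM. Outside the ring, MCM10 fell by 0.12, CDC45 rose by 0.18 and CDC7 rose by 0.33, from 10.8 and 12 RPKM to 14.2 and 14.5 RPKM.

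Of the 4 licensing genes 3 rose with CPI203 (background 31.1%). ORC1 rose by 0.49, ORC6 by 0.41 and CDC6 by 0.20. CDT1 fell by 0.27 with an adjusted p of 0.029. Its change was -0.13 without CPI203 replicate 1 (adjusted p = 0.237 by limma) and -0.18 without DMSO replicate 1 (0.19). The calls of RFC4 (up to 0.0603) and CDC45 (0.091) were lost without either of the same libraries. GINS3 lost its call without CPI203 replicate 1 or either DMSO library (up to 0.156), MCM10 without replicate 2 of CPI203 or DMSO (up to 0.12), and E2F1 without CPI203 replicate 2 or either DMSO library (up to 0.155).

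E2F2 fell with CPI203 too, from 25.4 and 24.2 RPKM to 16.2 and 17.4 RPKM, a change of -0.56 ± 0.054 (adjusted p = 1.19e-05). E2F1 rose by 0.16. E2F8 was at 8.37 and 9.21 RPKM against 9.17 and 8.75 RPKM, so its libraries overlapped. CDC25A fell from 25.4 and 26.7 RPKM to 18.0 and 20.0 RPKM, a change of -0.46 ± 0.060. In every alternative that kept the same controls, 15 of the 18 rises and 10 of the 14 falls passed the test. The 10 falls also passed it with all 4 DMSO libraries as controls, while 9 of the 15 rises did: CLSPN, CCNE2, UHRF1, GINS4, RFC5, ORC6, PCNA, CDC7 and CDC6. Most of the 41 genes were higher in the added DMSO libraries of the SGC-CBP30 series. That setting thus makes falls larger and rises smaller by construction, so these counts do not rank falls above rises.

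The responses to SGC-CBP30 and CPI203 were then compared directly, as the difference between the change with each compound in its own series. The doses differ, so the contrast compares these treatments and not equal exposures. The difference passed the test for 24 of the 41 genes, against a background of 50.3%. The change with SGC-CBP30 was the higher one for 14 (background 29.3%) and the lower one for 10 (background 21.0%). Past 1.5-fold the difference was higher for TIPIN, POLE2 and CDC25A and lower for CLSPN (background 24.5% in either direction). By pattern, 11 genes rose with both compounds (background 13.7%), 6 rose with SGC-CBP30 and fell with CPI203 (background 7.67% for opposite directions in either order), and E2F2 fell with both (background 8.40%). With CPI203 alone 14 genes passed the test, with SGC-CBP30 alone 4, and with neither 5, which were MCM4, MCM5, POLA1, FEN1 and E2F8. No share of all genes was computed for these last patterns, so their counts do not set the list apart from other genes.

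The 6 genes of opposite direction were TIPIN, RFC3, GINS1, GINS3, PRIM1 and CDC25A. TIPIN had the largest difference of the list, 1.27 ± 0.083 on the log2 scale (adjusted p = 2.75e-06), with a rise from 26.1 and 25.5 RPKM in the one series and a fall from 24.8 and 27.5 RPKM in the other. CDC25A differed by 0.63, RFC3 by 0.55, GINS1 by 0.48, PRIM1 by 0.45 and GINS3 by 0.38. In every alternative with the same controls, the rise with SGC-CBP30 passed the test for TIPIN and RFC3, and the fall with CPI203 for all but GINS3. POLE2 differed by 1.08 ± 0.123, and its change with SGC-CBP30 did not pass the test. CLSPN differed by -1.09 ± 0.078 (adjusted p = 4.47e-06), the rise being larger with CPI203, and POLE (-0.58), GINS4 (-0.51) and LIG1 (-0.47) followed.

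The 11 genes that rose with both were ORC1, CDC6, CDC7, POLA2, PCNA, RFC4, RFC5, CLSPN, CHAF1B, UHRF1 and CCNE2. For CDC7 the rise was larger with SGC-CBP30, by 0.31 (adjusted p = 0.0237). That call was lost with no filter on low values, under median scaling, under quantile normalization, and without DMSO replicate 1 or treated replicate 2 of the SGC-CBP30 series or DMSO replicate 2 or treated replicate 1 of the CPI203 series (adjusted p by limma of up to 0.0848). For CDC6 (0.03), POLA2 (-0.07) and CCNE2 (-0.20) the difference did not pass the test, which does not show that the compounds acted alike. The 2 falls of E2F2 differed by -0.11 ± 0.077 (adjusted p = 0.285).

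**Figure D3:**
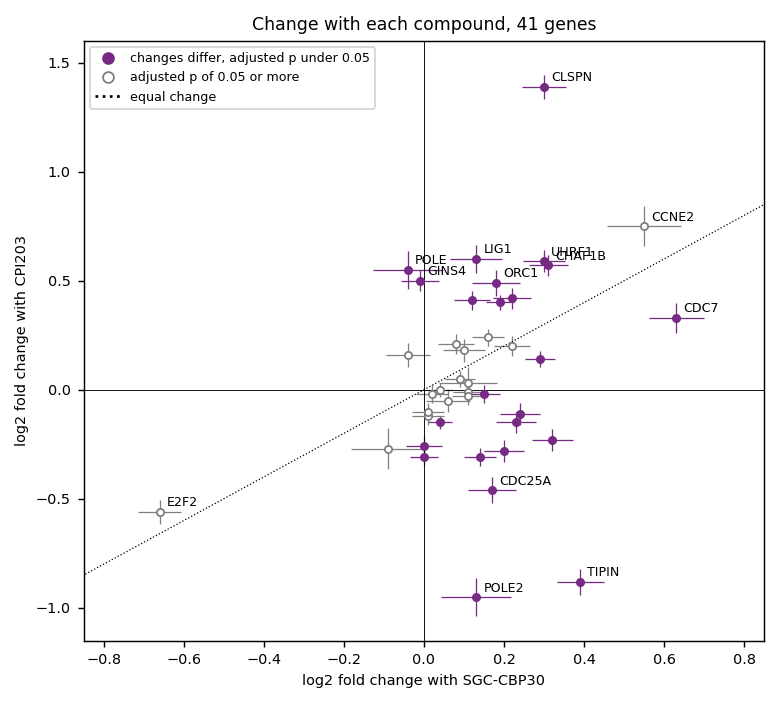
Log2 fold change with SGC-CBP30 (horizontal axis) and with CPI203 (vertical axis) for the 41 genes, with standard errors; filled points mark a difference between the changes at an adjusted p under 0.05 and the dotted line equal changes. CLSPN lies far above the line, TIPIN and POLE2 far below it, and E2F2 farthest to the lower left.

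The DMSO libraries of both series were compared after the data were seen, since the summed level of the genes differed between them. The genes were lower in the CPI203 series for 32 of 41 by limma at an adjusted p under 0.05, against a background of 21.5% of genes lower, and higher for 0 (background 20.3%), also 0 at an unadjusted p under 0.05. The median difference was -0.27 on the log2 scale, beside 0.01 for all genes. Both DMSO libraries of the CPI203 series were below both of the SGC-CBP30 series for 36 of 41 (background 35.1%), and CDC6, POLA1, TIPIN, CCNE2 and CDC25A overlapped. POLE had the largest difference, at 35.8 and 32.0 RPKM in the SGC-CBP30 series and 20.9 and 22.6 RPKM in the CPI203 series, a difference of -0.63 ± 0.087, and was the 1 gene past 1.5-fold (background 3.91%). LIG1 (-0.55), E2F1 (-0.55) and E2F8 (-0.52) followed. E2F1 was at 46.6 and 51.5 RPKM in the one series and at 33.7 and 33.3 RPKM in the other. Whether the series differed in growth of the cells, in handling or in sequencing cannot be told apart.

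These control levels bear on the rises with CPI203. POLE, LIG1, ORC1, CHAF1B, CHAF1A, POLA2, CDC45, RFC4 and E2F1 rose against their own DMSO libraries. They did not pass the test against all 4 DMSO libraries. ORC1, for example, was at 15.8 and 15.4 RPKM with DMSO and at 22.8 and 21.0 RPKM with CPI203, while DMSO in the SGC-CBP30 series gave 20.8 and 22.5 RPKM. CLSPN and CCNE2 with CPI203 were above all 4 DMSO libraries, and POLE2 and TIPIN below all 4. CHAF1B (22.4 and 23.0 RPKM) and RFC4 (94.3 and 91.4 RPKM) with CPI203 were also above all 4, although they did not pass that test. Their highest DMSO levels were 20.7 and 90.9 RPKM.

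**Figure D4:**
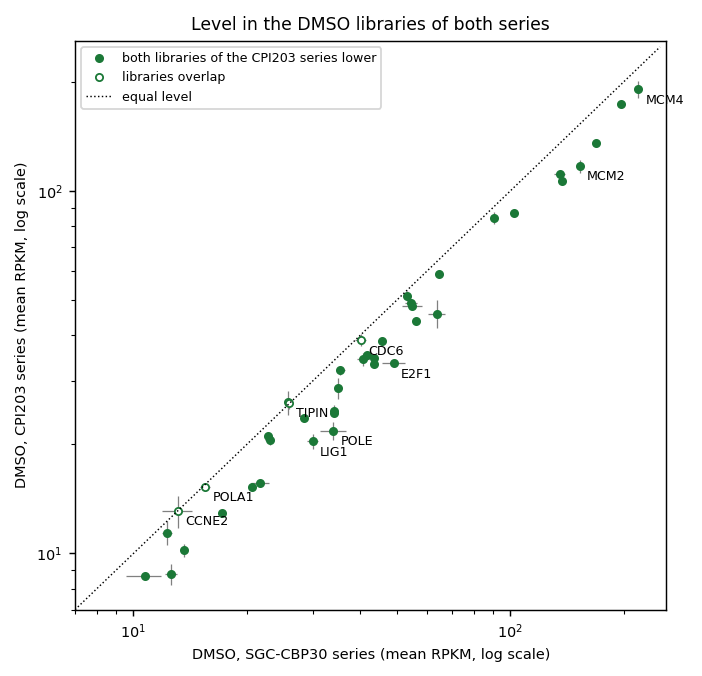
Mean RPKM of the 41 genes in the DMSO libraries of the SGC-CBP30 series (horizontal, log scale) and of the CPI203 series (vertical, log scale), with SD (n = 2). Nearly all points lie below the dotted line of equal level, and the 5 open points are genes whose libraries overlap.

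Further genes of the pathway, which are not among the 41, were examined as lists. Their counts are read beside the shares of all genes tested, 25.6% higher and 14.8% lower with SGC-CBP30 and 31.1% higher and 33.1% lower with CPI203. Of 29 other replication genes, 14 rose and 1 fell with SGC-CBP30, and 15 rose and 8 fell with CPI203, with medians of 0.17 and 0.19, beside 0.07 and -0.01 for all genes tested. MCM9 (0.44) and DNA2, a nuclease and helicase of flap processing (0.43), rose most with SGC-CBP30, and POLD2, a subunit of polymerase delta, was the 1 that fell (-0.22). With CPI203 the origin recognition subunits moved apart. ORC5 fell from 33.4 and 36.9 RPKM to 19.1 and 19.2 RPKM (-0.87) and ORC2 by 0.57, while ORC4 rose by 0.63. GMNN, geminin, the inhibitor of CDT1, rose from 62.4 and 58.0 RPKM to 87.6 and 87.0 RPKM with CPI203 (0.54), where CDT1 itself fell. Without a filter on low values, 8 of these genes rose with SGC-CBP30, and 9 without its replicate 2.

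Of 24 further E2F targets outside the replication machinery, 15 rose (background 25.6%) and 5 fell (14.8%) with SGC-CBP30, and 16 rose (31.1%) and 3 fell (33.1%) with CPI203. ATAD2, a chromatin factor, rose from 51.5 and 54.2 RPKM to 100.8 and 99.8 RPKM with CPI203 (0.92). RRM2, the small subunit of ribonucleotide reductase, rose from 105.9 and 111.3 RPKM to 198.0 and 197.5 RPKM (0.86). CDCA7, a chromatin factor, fell by 0.47 with CPI203 and by 0.33 with SGC-CBP30. With SGC-CBP30 the largest rises were those of BARD1, the partner of BRCA1 (0.34), and FBXO5, an inhibitor of the anaphase-promoting complex (0.33), and MYBL2 fell by 0.17. The count of 5 falls was 2 when replicate 2 of its DMSO, or either SGC-CBP30 library, was left out.

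The genes that control E2F had a median change, regardless of sign, of 0.27 with SGC-CBP30 and 0.53 with CPI203, beside 0.13 and 0.26 for the 41 genes and 0.18 and 0.33 for all genes tested. Of 23 tested, 5 rose (background 25.6%) and 10 fell (14.8%) with SGC-CBP30, and 10 rose (31.1%) and 10 fell (33.1%) with CPI203; the cyclin D1 gene CCND1, with at most 0.153 RPKM in any library, was not tested. CCND2, cyclin D2, fell with both compounds, from 101.2 and 107.8 RPKM to 56.5 and 50.3 RPKM with SGC-CBP30 and from 81.3 and 76.9 RPKM to 41.2 and 40.0 RPKM with CPI203. The log2 fold changes were -0.97 and -0.96, and their difference did not pass the test (adjusted p = 0.926 by limma). E2F7, a repressive E2F, rose with both, from 5.70 and 5.62 RPKM to 9.16 and 9.03 RPKM (0.67) and from 4.73 and 5.36 RPKM to 12.7 and 13.9 RPKM (1.38).

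With SGC-CBP30 the CDK inhibitor gene CDKN2B fell from 22.2 and 23.4 RPKM to 9.41 and 8.61 RPKM (-1.33), and CCNE1, cyclin E1, fell from 14.5 and 14.2 RPKM to 8.72 and 8.86 RPKM (-0.70). CCNE1 thus went down where CCNE2 went up. The CDK inhibitor genes CDKN2A (-0.40), CDKN1C (-0.39), CDKN1B (-0.32) and CDKN2C (-0.18) also fell with SGC-CBP30, while CDKN2D rose (0.58). With CPI203 neither CDKN2B (0.08) nor CCNE1 (-0.02) passed the test. Without replicate 2 of SGC-CBP30, 3 rather than 5 genes of this list rose with it.

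The CDK inhibitor genes moved in both directions with CPI203. CDKN1A, which encodes p21, was at 0.217 and 0.121 RPKM with DMSO and at 6.17 and 6.57 RPKM with CPI203 (4.61). Its mean of 1.74 RPKM passed the filter of 1 RPKM only through the CPI203 libraries, so its call with CPI203 is no independent support. Its log2 value also depends on the 0.1 added to levels this low. CDKN2D rose from 1.23 and 1.36 RPKM to 8.74 and 7.65 RPKM (2.57), and CDKN2C from 224.0 and 225.6 RPKM to 367.2 and 362.9 RPKM (0.70). CDKN1B (0.57) and CDKN1C (0.53) rose as well, whereas CDKN2A fell from 142.9 and 132.3 RPKM to 105.6 and 114.0 RPKM (-0.32, adjusted p = 0.000745 by limma). CDK4 fell from 238.8 and 236.5 RPKM to 140.7 and 139.9 RPKM (-0.76) and CDK6 by 0.70, whereas CDK2 rose by 0.66. E2F5 fell from 33.5 and 32.8 RPKM to 12.7 and 13.3 RPKM (-1.34) and E2F4 by 0.60. CDK6 also fell by 0.46 with SGC-CBP30, and CDKN1A was at 0.174 and 0.175 RPKM against 0.229 and 0.233 RPKM there and did not pass the test.

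Most mitotic genes, which are expressed later in the cycle, were higher with either compound. Of 25, 21 rose (background 25.6%) and 1 fell (14.8%) with SGC-CBP30, with a median of 0.28 beside 0.07 for all genes tested. With CPI203 19 rose (31.1%) and 4 fell (33.1%), with a median of 0.44 beside -0.01. ECT2, which positions the cytokinetic furrow (0.67), and the spindle checkpoint kinase gene TTK (0.59) rose most with SGC-CBP30. BUB1, another checkpoint kinase, fell from 121.1 and 117.5 RPKM to 72.5 and 75.1 RPKM (-0.69). CENPE, a kinetochore motor, rose from 14.5 and 16.0 RPKM to 33.2 RPKM in both libraries with CPI203 (1.12) and CDC25C by 0.98, while BUB1B (-0.36), UBE2C (-0.14) and BUB1 (-0.14) fell. The count of 4 falls was 2 without replicate 1 of CPI203. Differences between the lists were not tested.

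**Figure D5:**
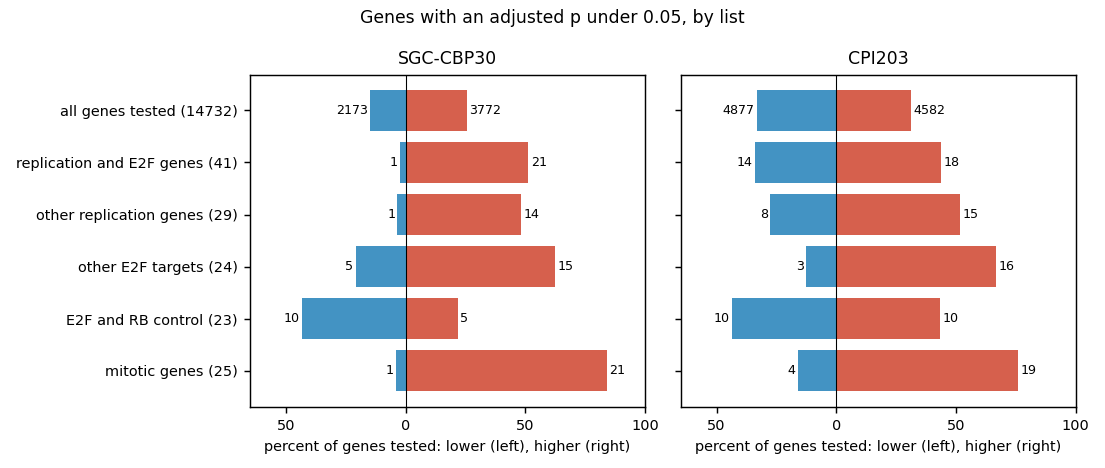
Percent of the genes of each list, and of all genes tested, that were lower (left of 0) or higher (right of 0) at an adjusted p under 0.05; the panels are the compounds, and numbers at the bars are genes. The 41 replication and E2F genes have 21 higher and 1 lower with SGC-CBP30, and 18 higher and 14 lower with CPI203.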

How the data were processed

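The deposited values are RPKM, which the authors' sequencing provider made from LP-1 RNA prepared on RNeasy columns with DNase. The submitters' processing notes name TopHat 1.4.1, Cufflinks and hg19. The annotation release and the use of strand are not given in the sources used here, so reads of overlapping or antisense genes cannot be told apart from those of a gene. Gene positions are those deposited with the table, which holds 24 further columns that were not used.

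Of 63129 rows, 27 lacked a value and were left out. The 14732 genes averaging 1 RPKM or more were tested as log2(RPKM + 0.1), unscaled, over all 8 libraries, with limma 3.58.1 in R 4.3.3 (4 group means, intensity trend, Benjamini-Hochberg adjustment). The fit was tested on simulated data with 200 changed genes, far fewer than were called in these data. Of changes of 0.25 on the log2 scale, 23.7% were called for SGC-CBP30 and 20.3% for CPI203. Of changes of 1.0, 97.3% were called for either. A gene that did not pass the test may thus still have changed by a small amount. An exact permutation test of 2 libraries against 2 cannot go below a two-sided p of 0.333, so none was run, and no count test fits RPKM. Depth was estimated from the steps of values under 0.5 RPKM. As only 58.7% to 71.5% of them were whole reads within 0.1 read, reads were not recovered. The SD of the log2 difference between replicates was 0.091 to 0.115.

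Values in every library are given for genes past 1.5-fold with either compound, the 5 largest and 5 smallest changes with each compound among genes that passed, and the 3 highest and 3 lowest levels. From the other lists, control genes past 1.5-fold and the 2 largest changes in each direction are named. A gene under this rule is not reported here. POLE, ORC1, E2F1 and MCM2 were given per library after their values were seen. The 41 genes and the lists were chosen with earlier results of these data known. Alternatives were another pseudocount (1), a higher minimum (5 RPKM) or none, median scaling or quantile normalization, pooled DMSO libraries, a replicate block, fits by series, no trend, and leaving out each library. Python 3.11.15, pandas 2.3.3, numpy 2.4.6 and matplotlib 3.10.9 were used.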

Additional observations from a re-analysis of the deposited data

How the results depend on the processing

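With SGC-CBP30, 13 of the 41 genes rose under median scaling (median 0.05) and 13 with all 4 DMSO libraries as controls (median 0.27), where 0 fell by limma (1 at an unadjusted p under 0.05). Of all 14732 genes tested, 2440 rose under median scaling (median -0.006). At 1.5-fold, 1 passed 1.5-fold under median scaling, 1 under quantile normalization and 1 with all 4 DMSO libraries. A pseudocount of 1 gave a median of 0.12. With each library left out in turn, 12 to 22 genes rose and 2 to 3 passed 1.5-fold, with medians of 0.12 to 0.14. With CPI203, 9 genes rose with all 4 DMSO libraries as controls (median -0.12), and the median was 0.05 under quantile normalization. With each library left out, 15 to 18 rose, 11 to 13 fell and the median lay between -0.01 and 0.04. Against all 4 DMSO libraries the sign turned for E2F1 with CPI203 (-0.12, adjusted p = 0.606 by limma), CHAF1A with CPI203 (-0.03, 0.869) and MYBL2 with SGC-CBP30 (0.10, 0.718). The lower DMSO levels of the CPI203 series enter that setting by construction; the cause of the other changes was not tested. The difference between DMSO pairs gave 27 to 33 genes under the alternatives run, and the difference between compounds 20 to 25. That difference could not be refitted with pooled controls and was not run with separate fits. A share of all genes tested is given only for the rises under median scaling. The other counts under alternatives, in this section and above, thus show how the calls depend on the setting. They do not show whether the list moved differently from other genes.

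The paper describes the DMSO controls as paired with the treated samples, and the main fit did not use a pairing. The deviations of same-numbered libraries were not positively correlated over 8298 genes. The correlation was -0.172 in the SGC-CBP30 series and -0.039 in the CPI203 series. This does not show that the libraries were unpaired. With the replicate number as a block, 16 genes rose and 1 fell with SGC-CBP30, 18 rose and 11 fell with CPI203, and 22 differed between compounds. With the numbers crossed in the SGC-CBP30 series, chosen after seeing the data, these counts were 19 and 1, 18 and 13, and 23. Depth limited none of the 41 genes to near the filter on low values, the lowest mean being 8.86 RPKM.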
